A study of Mus musculus with 6 samples.

Results

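The genes described here are 10 mouse genes of Wnt signalling: the secreted Wnt-binding proteins Sfrp1, Sfrp2, Sfrp4 and Wif1, the Dickkopf proteins Dkk2 and Dkk3, the ligands Wnt5a and Wnt2, the agonist Rspo3 and the transcription factor Tcf7l2. They were taken by symbol, from a set drawn up with earlier results of these data known, and all 10 were found among the 43432 genes of each count file. Total RNA was sequenced in 6 libraries, 3 titled control and 3 titled FID, all with the further tag D3. The series is about mice lacking Igf1, the gene of the growth factor IGF-I, in FAPs, or fibro-adipogenic progenitors, a mesenchymal cell type that resides in muscle. Neither FID nor D3 is spelled out in the sources used here, and the Cre driver, the genotype and sex of each animal and any pooling are not given there either. Per the labels, mice aged 12 to 13 weeks were injected with tamoxifen at 100 ug per g of body weight on 5 days in a row, with a washout of 1 week or more. The labels do not limit this to 1 group. For every library they give 1000 ng of RNA with an RNA integrity number above 5.6, a bound that allows partly degraded RNA. Whether each library stands for a different animal is not stated, so every p-value measures the spread between libraries, which may in part be technical.

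Wnt proteins are lipid-modified signals that bind Frizzled receptors. With the co-receptors LRP5 and LRP6 they keep beta-catenin from being broken down, so that it can act with TCF/LEF factors in the nucleus; other Wnts act without beta-catenin, through ROR receptors and cell polarity. Secreted proteins set how much of this signal reaches a cell. SFRPs and WIF1 bind the Wnts themselves, Dickkopf proteins such as DKK2 act on LRP5 and LRP6, and R-spondins keep Frizzled receptors at the surface. In muscle, FAPs are a known source of several of these secreted proteins, and TCF7L2 is used as a marker of connective tissue fibroblasts.

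The SFRPs are paralogs, so whether reads can be assigned to one of them bears on every value below. Their coding sequences share a short stretch in the first coding exon, within the part that encodes the Wnt-binding cysteine-rich domain. The windows below are from the GENCODE M21 transcripts (build mm10), with capitals marking the longest run shared by the SFRPs of each subgroup. Sfrp1, Sfrp2 and Sfrp5 share a run of 17 bases, and Sfrp4 and Frzb (also called SFRP3) share a run of 27 bases.
Sfrp1: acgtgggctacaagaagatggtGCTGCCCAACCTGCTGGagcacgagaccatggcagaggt
Sfrp2: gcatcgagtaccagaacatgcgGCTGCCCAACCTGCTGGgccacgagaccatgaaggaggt
Sfrp5: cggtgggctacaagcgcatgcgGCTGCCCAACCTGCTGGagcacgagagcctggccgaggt
Sfrp4: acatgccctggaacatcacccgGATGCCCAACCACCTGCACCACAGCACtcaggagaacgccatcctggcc
Frzb: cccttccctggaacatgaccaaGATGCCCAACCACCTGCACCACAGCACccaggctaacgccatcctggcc
The capitals lie at chr8:23412015-23412031 in Sfrp1, at chr3:83766718-83766734 in Sfrp2 and at chr13:19623555-19623581 in Sfrp4, all on the plus strand and in exon 1. Between Sfrp1 and Sfrp2 no coding run longer than 17 bases is shared, and between Sfrp1 and Sfrp4 none longer than 10. With Sfrp5 the longest shared coding run is 26 bases for Sfrp1 and 23 bases for Sfrp2. Over the whole transcripts, none of the 36-base windows of Sfrp2, Dkk3, Wif1, Wnt2, Rspo3 or Tcf7l2 occurs in the annotated transcript of another gene. For Sfrp1, Sfrp4, Dkk2 and Wnt5a such windows make up 0.301%, 0.596%, 0.763% and 0.153%. Only exact matches on the transcript strand were counted. Sfrp2, Wnt5a and Tcf7l2 overlap the annotated genes Gm26771, Gm2670 and Ppnr, which had at most 4 counts in any library. Entries marked ambiguous made up 3.93% to 4.06% of each file and are not split by gene. Reads lost to such overlaps therefore cannot be seen from these counts. Rspo3 overlaps Gm20276 and Gm48159, for which no counts were used here.

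Library depth lay between 5201853 (control 1) and 10093757 gene counts. The mean level of Igf1 was 100.2 ± 37.3 CPM (counts relative to library size, after TMM scaling) over the control libraries, against 99.2 ± 15.3 CPM over the FID libraries (SD, n = 3 per group), so the gene that the model deletes does not check the labels. Defining myofibre transcripts were scarce although the tissue is labelled skeletal muscle. The 10 myofibre markers summed to 71.0 CPM in control 1 and 8.01 to 30.7 CPM in the other libraries. Ckm, muscle creatine kinase, was at or below 1.19 CPM in each library, whereas Acta1, skeletal muscle actin, reached 30.9 CPM in control 1 and 16.2 CPM in FID 1. FAP and fibroblast markers were abundant and summed to 6067 to 6381 CPM in control and 4113 to 4978 CPM in FID (16 genes, 15 with a log2 fold change below 0). Macrophage markers summed to 3763 to 6181 CPM in control and 7946 to 10712 CPM in FID (14 genes, 14 above 0). Interferon response genes summed to 357 to 1209 CPM in control and to 940, 6763 and 3750 CPM for FID 1 to 3, so that FID 2 and FID 3 stood apart (12 genes, 12 above 0, median log2 fold change 2.43). Control 1 stood apart in its vessel, tendon and myofibre markers. Its endothelial markers summed to 3496 CPM, against 1127 to 1689 CPM in the other libraries, its pericyte and smooth muscle markers to 2749 CPM against 1259 to 1610 CPM, and its tenocyte markers to 3313 CPM against 731 to 1674 CPM. Its satellite cell and myoblast markers were also the highest, 366 CPM against 230 to 301 CPM. In RNA of mixed cells, fewer cells of a type and less RNA per cell cannot be told apart.

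**Figure D1:**
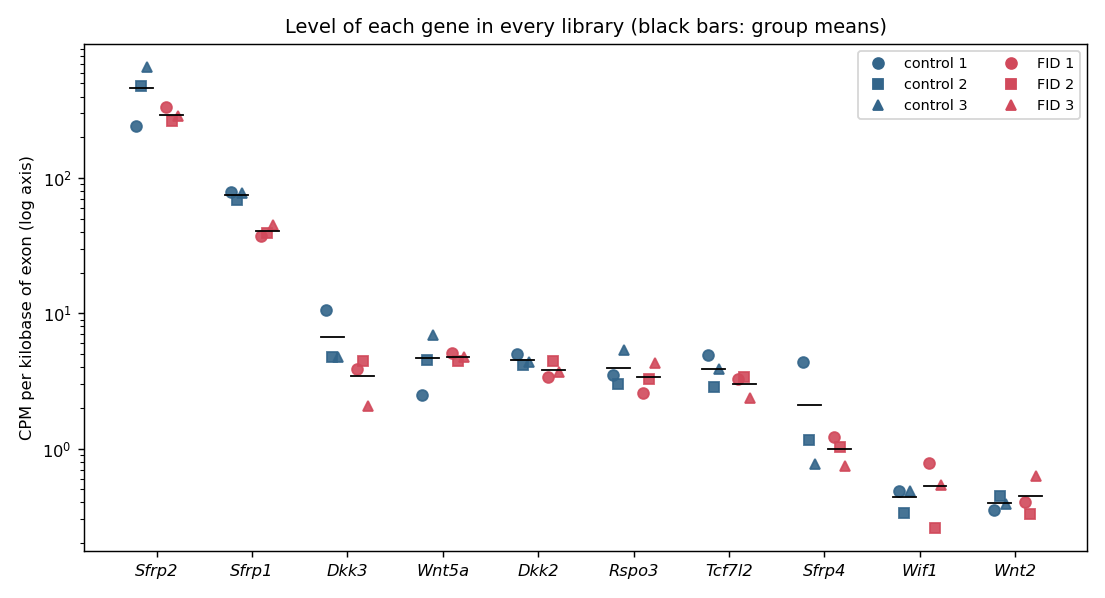
Level of the 10 genes in every library, in CPM per kilobase of annotated exon on a log axis; symbols are libraries and black bars are group means. Sfrp2 and Sfrp1 stand above the other 8 genes in every library.

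Sfrp2 and Sfrp1 were by far the most abundant of the 10 genes. Scaled per kilobase of exon, Sfrp2 averaged 378 CPM per kb over the 6 libraries and Sfrp1 57.6 CPM per kb. Their ranges, 243 to 662 and 37.2 to 78.3 CPM per kb, did not touch each other or that of Dkk3, the next in order, at 2.06 to 10.5 CPM per kb. Dkk3, Wnt5a, Dkk2, Rspo3, Tcf7l2 and Sfrp4 followed with means of 5.07, 4.71, 4.16, 3.68, 3.44 and 1.55 CPM per kb, and each overlapped the next in that order. Wif1 and Wnt2 closed the order with 0.481 and 0.423 CPM per kb, and their ranges overlapped as well. Sfrp2 alone made up 68.8% of the summed level per kb of the 10 genes in control 1 and 81.3% to 86.4% in the other libraries. The plot of levels per kilobase shows this order.

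The comparison of FID with control asks which of these genes differ between the libraries with these titles. A total of 9 of the 10 genes passed the filter on low counts and were tested among 12881 genes. With edgeR's quasi-likelihood test 0 passed the adjusted threshold of 0.05, against 0% of all genes tested, and 1, Sfrp1, had an unadjusted p under 0.05, against a background of 19% (9.21% lower and 9.81% higher in FID). DESeq2 called 1, Sfrp1 again, against 5.93% of all genes (2.27% lower and 3.66% higher), and limma-voom called 0, against 0% of all genes. Of the 9 genes, 7 had a log2 fold change below 0, against 52.2% of all genes, and the median was -0.36, against -0.019 over all genes. The groups did not overlap in 2 of the 9, Sfrp1 and Dkk3, both lower in FID, against a background of 12.3% of genes that were lower without overlap. None was higher without overlap, against a background of 13% (25.3% in either direction).

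**Figure D2:**
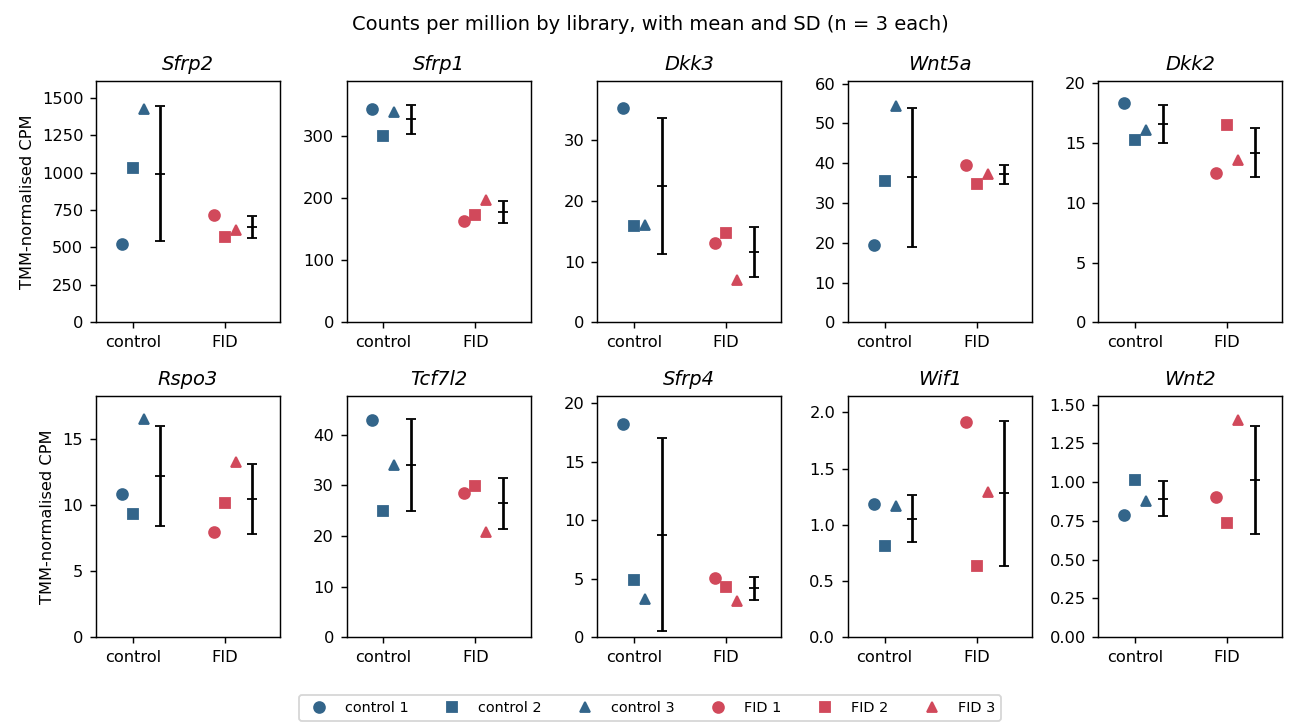
TMM-normalised CPM of each of the 10 genes, with 1 symbol per library and the mean and SD (n = 3) beside each group; every axis starts at 0. For Sfrp1 the 3 FID libraries, at 162 to 196 CPM, lie below the 3 control libraries, at 300.1 to 342 CPM.

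Sfrp1 showed the clearest difference among the Wnt-binding proteins. It encodes a secreted protein that binds Wnts through a Frizzled-like domain (ENSMUSG00000031548, mm10 chromosome 8, 23411502 to 23449632, plus strand, protein coding). The 3 control libraries had 342, 300.1 and 337 CPM in order of their number, whereas the 3 FID libraries had 162, 172 and 196 CPM, from 1442 to 3455 counts per library. All FID libraries were below all control libraries, and the libraries of a group lay close together, with means of 327 ± 23.0 and 177 ± 17.5 CPM (SD, n = 3 each). The level was 1.84-fold lower in FID (log2 fold change -0.88, SE 0.13, 95% interval -1.19 to -0.57). By p this ranked 20 of the 12881 genes, with an unadjusted p of 2.2e-04 in edgeR's quasi-likelihood test and a Benjamini-Hochberg adjusted p of 0.122, which misses the threshold. DESeq2 gave an adjusted p of 2.2e-06. With any 1 library left out, the log2 fold change stayed between -0.96 and -0.81, with edgeR adjusted p of 0.0506 to 0.443.

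The summed FAP and fibroblast markers were lower in the same libraries. Of the 16 markers, 7 were lower without overlap, against 12.3% of all genes, and 0 were higher without overlap. Their log2 fold changes ran from -1.05 (Pi16) to 0.081 (Dpp4), with -0.84 for Col15a1 and -0.93 for Mfap5. The collagen gene Col1a1, outside the list, had -0.89 (SE 0.18, edgeR adjusted p 0.136), also without overlap. Such falls were thus not particular to Sfrp1. When library sizes were set by these 16 markers in place of TMM, the median of all genes moved by 0.42 on the log2 scale, to 0.40. On that scale the log2 fold change of Sfrp1 was -0.45 (SE 0.19, adjusted p 0.107 with edgeR), still with no overlap between the groups. As a ratio to the plain sum of the markers, computed after the values were seen, Sfrp1 measured 56.4, 47.6 and 52.9 per 1000 marker CPM in control and 32.6, 38.8 and 47.8 in FID, so that FID 3 reached the lower end of the control range. Macrophage markers and interferon response genes were at higher summed levels in FID on average, and their part in the Sfrp1 difference was not tested.

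Sfrp2, a secreted Wnt-binding protein of activated fibroblasts (ENSMUSG00000027996, mm10 chromosome 3, 83766321 to 83774316, plus strand), varied mostly within the control group. Its level was 523, 1032 and 1424 CPM for control 1 to 3, compared with 716, 572 and 616 CPM for FID 1 to 3. Control 2 and control 3 lay above every FID library, whereas control 1 lay below all of them. The group means were 993 ± 452 and 635 ± 73.6 CPM (SD, n = 3 per group), and the log2 fold change was -0.65 with a 95% interval of -1.42 to 0.12 (SE 0.33, adjusted p 0.328 with edgeR). Without control 1 the log2 fold change was -0.95 (edgeR adjusted p 0.0823), and without control 3 it was -0.28 (edgeR adjusted p 0.611). Scaled to the FAP markers, it was -0.25. Control 1 is also the library with the high vessel, tendon and myofibre markers, and the part of these in its low Sfrp2 was not tested. The balance between the paralogs moved with the same library. Sfrp1 made up 24.4% of Sfrp1 plus Sfrp2 per kb in control 1 and 10.05% to 13.6% in the other libraries.

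**Figure D3:**
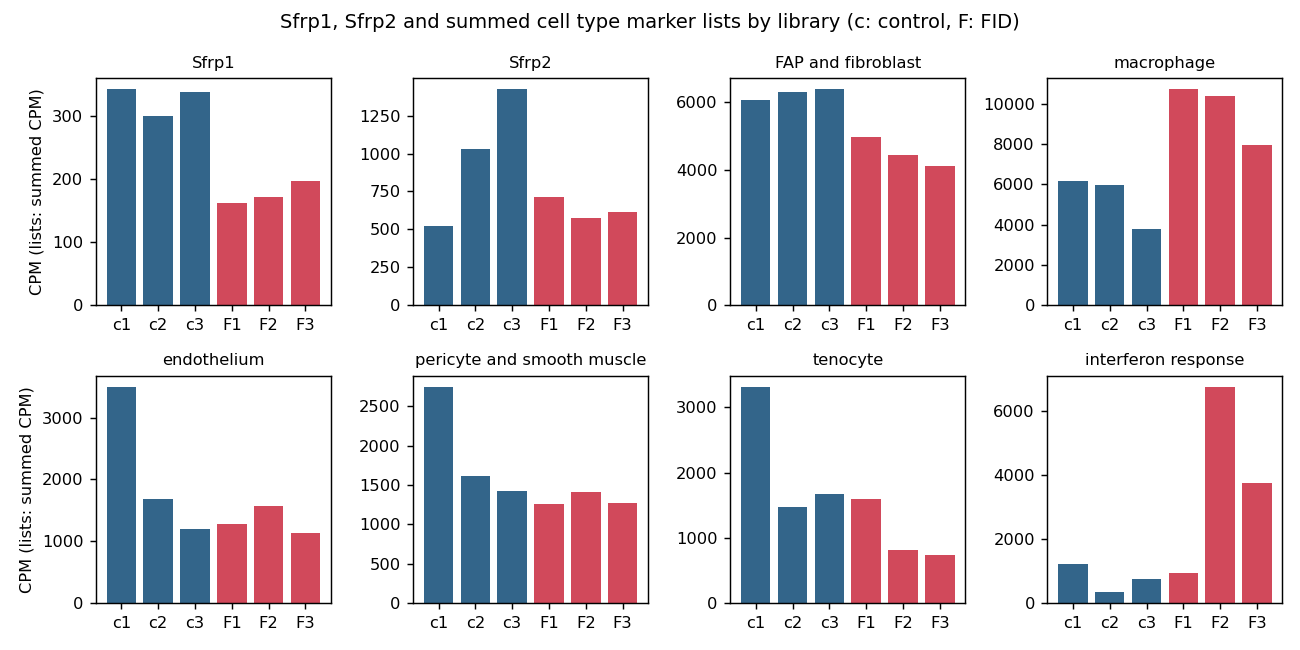
CPM of Sfrp1 and Sfrp2 and summed CPM of 6 marker lists in each library (c, control; F, FID); every axis starts at 0. Sfrp1 is lower in all FID libraries, whereas control 1 is low in Sfrp2 and high in endothelial, pericyte and tenocyte markers.

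Sfrp4 (ENSMUSG00000021319, mm10 chromosome 13, 19623104 to 19632994, plus strand), an SFRP known from connective tissue and bone, was high in a single library. Its level was 18.2 CPM in control 1 and 4.87 and 3.22 CPM in the other control libraries, compared with 5.07, 4.30 and 3.13 CPM for FID 1 to 3. Control 1 held 92 of its counts although it was the shallowest library, and the other libraries held 29 to 48. The log2 fold change was -1.01 with a 95% interval of -2.48 to 0.46 (SE 0.63, adjusted p 0.412 with edgeR), and it became 0.043 without control 1. Wif1 (ENSMUSG00000020218, mm10 chromosome 10, 121033960 to 121100650, plus strand), which binds Wnts through a domain of its own, was near the floor that a count of 0 allows, 0.293 to 0.593 CPM. The control libraries had 1.19, 0.811 and 1.17 CPM, the FID libraries 1.92, 0.630 and 1.30 CPM, and the groups overlapped. Its log2 fold change was 0.29 with a wide interval of -0.85 to 1.42 (edgeR adjusted p 0.782), and it was -0.10 without FID 1.

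The Dickkopf genes differed from each other in how they varied. Dkk3, an unusual Dickkopf relative that is abundant in mesenchyme (ENSMUSG00000030772, mm10 chromosome 7, 112116017 to 112159057, minus strand), had 35.4, 15.9 and 16.1 CPM for control 1 to 3, compared with 13.1, 14.8 and 6.91 CPM for FID 1 to 3. The groups did not overlap, but the gap between control 2 and FID 2 was small and control 1 was high. The means were 22.5 ± 11.2 and 11.6 ± 4.15 CPM (SD, n = 3 each), and the log2 fold change was -0.93 (SE 0.40, 95% interval -1.87 to 0.00021, unadjusted p 0.05004, edgeR adjusted p 0.263). Without control 1 it was -0.47 (edgeR adjusted p 0.432). Scaled to the FAP markers, it was -0.52 and its groups overlapped. Dkk2, which binds LRP5 and LRP6 (ENSMUSG00000028031, mm10 chromosome 3, 132085292 to 132180304, plus strand), was steady in comparison. The control libraries had 18.4, 15.3 and 16.1 CPM and the FID libraries 12.5, 16.5 and 13.6 CPM. The groups overlapped, and the log2 fold change was -0.22 with a 95% interval of -0.62 to 0.18 (SE 0.17, adjusted p 0.511 with edgeR). Scaled to the FAP markers, that value was 0.21.

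The ligands were expressed at low levels. Wnt5a, the typical ligand of the beta-catenin-independent branch (ENSMUSG00000021994, mm10 chromosome 14, 28504750 to 28527448, plus strand), had 19.4, 35.6 and 54.4 CPM for control 1 to 3, compared with 39.7, 34.8 and 37.2 CPM for FID 1 to 3. The FID libraries lay inside the control range, as the means of 36.4 ± 17.5 and 37.2 ± 2.46 CPM show (SD, n = 3 per group). Fitted, the log2 fold change was 0.016 (SE 0.32, 95% interval -0.74 to 0.78, edgeR adjusted p 0.985), -0.28 without control 1 and 0.44 without control 3, so neither a fall nor a rise within that interval could be told from none. Wnt5a shared with Sfrp2 the order of the control libraries, lowest in control 1 and highest in control 3. This order is not particular to them. Among the FAP and fibroblast markers, Prrx1, Dcn and Lum had it too, whereas others, such as Cd34, had the reverse. Wnt2 (ENSMUSG00000010797, mm10 chromosome 6, 17988940 to 18030585, minus strand), a ligand that signals through beta-catenin, had 4, 10 and 9 counts in control and 8, 7 and 13 counts in FID. That is 0.791 to 1.01 CPM in control and 0.735 to 1.40 CPM in FID, too few to pass the filter, and no difference was detectable at this depth.

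Rspo3, an R-spondin that keeps Frizzled receptors at the cell surface (ENSMUSG00000019880, mm10 chromosome 10, 29452416 to 29535867, minus strand), had 10.9, 9.33 and 16.5 CPM for control 1 to 3, compared with 8.001, 10.2 and 13.3 CPM for FID 1 to 3. The groups overlapped, and the log2 fold change was -0.23 with a 95% interval of -0.89 to 0.43 (SE 0.28, adjusted p 0.697 with edgeR). Tcf7l2, the TCF/LEF factor of the set (ENSMUSG00000024985, mm10 chromosome 19, 55741820 to 55933654, plus strand), had 42.9, 24.8 and 34.1 CPM for control 1 to 3, compared with 28.5, 29.9 and 20.7 CPM for FID 1 to 3. The groups overlapped here too, and the log2 fold change was -0.36 with a 95% interval of -0.91 to 0.19 (SE 0.24, adjusted p 0.440 with edgeR). Scaled to the FAP markers, it was 0.057.

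**Figure D4:**
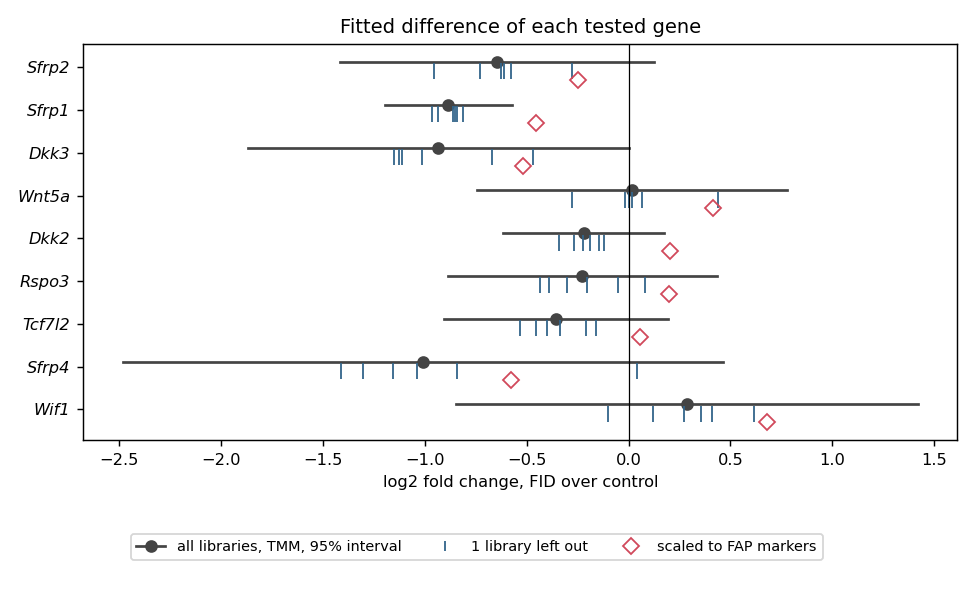
Log2 fold change (FID over control) of the 9 tested genes; dots with lines are the fit with 95% intervals, blue ticks the fits with 1 library left out, and open diamonds the fit scaled to FAP and fibroblast markers. Sfrp1 is the 1 gene whose interval, -1.19 to -0.57, lies wholly below 0.

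The counts in the pathway lists that follow stand against the background already given. Over all genes tested, 52.2% had a log2 fold change below 0. Those lower with an unadjusted p under 0.05 in edgeR made up 9.21%, and those lower without overlap 12.3%. Other secreted modulators were read from a list of 17 genes, 7 of them untested for low counts. The 3 tested genes that are not among the 10 all had a log2 fold change below 0, and 2, Frzb and Rspo2, had an unadjusted p under 0.05, both lower. Rspo2 passed the filter on low counts only through its control libraries. This favours a lower value in FID, so its sign, p and lack of overlap are no support for a fall. Frzb, a secreted Wnt-binding SFRP of cartilage and tendon, had 5.74, 4.56 and 11.2 CPM for control 1 to 3, compared with 4.17, 2.10 and 2.48 CPM for FID 1 to 3, without overlap (log2 fold change -1.31, SE 0.43, edgeR adjusted p 0.184). Without control 3 it was -0.79, and scaled to the FAP markers it was -0.93 and the groups overlapped. Rspo2, a second R-spondin, had 1.19, 1.62 and 1.86 CPM for control 1 to 3, compared with 0.225, 0.210 and 0.972 CPM for FID 1 to 3, where the lowest libraries had under 3 counts (log2 fold change -1.73, SE 0.60, edgeR adjusted p 0.197). It ranged from -2.79, without FID 3, to -1.37, without FID 2, and scaled to the FAP markers it was -1.30 and the groups overlapped. Sfrp5 had its highest level in control 1, 31.1 CPM, and overlapping groups. Dkk1 and Dkk4 had no count in any library.

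Of the 19 Wnt ligand genes, 6 were tested, and Wnt5a had the highest control mean in CPM per kb among them, 4.66. Of the 5 others, 4 had a log2 fold change below 0 and 1 had an unadjusted p under 0.05. This was Wnt11, a ligand of the polarity branch, with a mean of 13.3 ± 0.796 CPM over control and 9.35 ± 0.737 CPM over FID, without overlap (log2 fold change -0.50, SE 0.16, edgeR adjusted p 0.179). Wls, the carrier that brings every Wnt to the cell surface, was level across the libraries, with means of 146 ± 6.01 CPM for control and 149.8 ± 4.52 CPM for FID (log2 fold change 0.034, SE 0.11). It belongs to a list of Wnt secretion genes in which 3 of 4 tested genes were above 0, with a median of 0.033. Of these, Tmed5, a cargo receptor of Wnt secretion, had an unadjusted p under 0.05, against 9.81% of all genes that were higher at that level, with 83.6 ± 15.6 CPM over control and 111 ± 13.0 CPM over FID and overlapping groups (log2 fold change 0.40, SE 0.17, edgeR adjusted p 0.255).

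Wnt receptors and co-receptors mostly had log2 fold changes below 0. Of 23 genes, 18 were tested, 17 of them below 0, with a median of -0.50, and 9 had an unadjusted p under 0.05, all lower, against 9.21% of all genes. In 7 the groups did not overlap, all lower, against 12.3% of all genes, and 0 passed edgeR's adjusted test, whereas DESeq2 called 4, Kremen1, Lgr4, Lrp6 and Ptk7, against 2.27% of all genes called lower, and limma-voom 0. Kremen1, a receptor for some Dickkopf proteins, averaged 75.9 ± 2.62 CPM over control and 51.9 ± 2.05 CPM over FID (log2 fold change -0.55, SE 0.11, edgeR adjusted p 0.136). Lgr4, a receptor for R-spondins, measured 21.0 ± 1.59 and 13.8 ± 1.503 CPM (log2 fold change -0.61). Lrp6, a co-receptor on which some Dickkopf proteins act, measured 174 ± 26.2 and 115 ± 13.5 CPM (log2 fold change -0.60). Ror2, a receptor for Wnt5a, measured 21.1 ± 4.52 and 14.0 ± 0.437 CPM (log2 fold change -0.58). The medians of the marker lists in the same fit varied. They were -0.42 for FAPs and fibroblasts, -0.53 for pericytes and smooth muscle, -0.61 for endothelium and -0.79 for tenocytes. Myofibres had -0.50, from 6 tested genes with 2 above 0, and satellite cells and myoblasts -0.19. Schwann and nerve markers had 0.019, macrophages 0.74 and interferon response genes 2.43. The part of the cell mix in the receptor values was not tested.

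**Figure D5:**
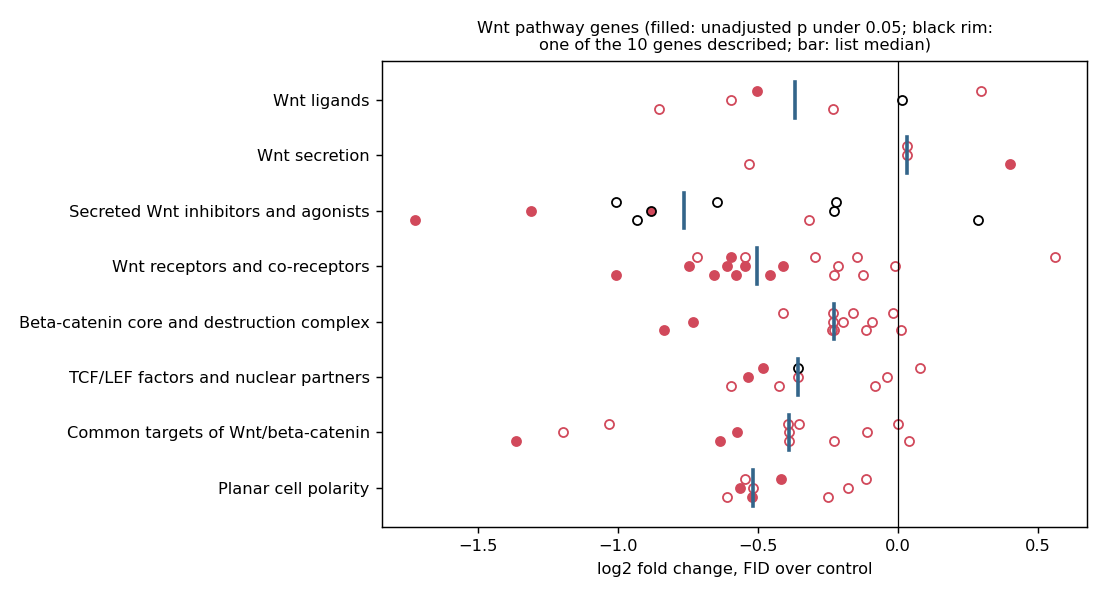
Log2 fold change (FID over control) of every tested gene in 8 Wnt pathway lists; filled points have an unadjusted p under 0.05, black rims mark the 10 genes described, and bars are list medians. Points lie mostly left of 0, with 17 of 18 receptors below 0.

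Genes of the pathway inside the cell mostly had log2 fold changes below 0, against 52.2% of all genes. Of 13 genes of the beta-catenin core and its destruction complex, 12 were below 0, with a median of -0.23, and 2 had an unadjusted p under 0.05. These were Dvl3, which relays the signal from Frizzled, at 21.4 ± 2.99 against 11.9 ± 1.38 CPM, and Apc, a scaffold of the destruction complex, at 68.6 ± 19.1 against 41.1 ± 3.76 CPM (edgeR adjusted p 0.136 and 0.158, DESeq2 adjusted p 0.00952 and 0.0487). Of the 8 tested TCF/LEF factors and nuclear partners other than Tcf7l2, 7 were below 0, with a median of -0.39, and Lef1 and Tcf7 had too few counts to be tested. Of these 8, 2 had an unadjusted p under 0.05 in edgeR, and 2 did not overlap between the groups, all lower. Tcf7l1 measured 36.8 ± 8.93 against 26.2 ± 3.15 CPM (log2 fold change -0.48, SE 0.20, edgeR adjusted p 0.247). Of 9 tested genes of planar cell polarity, 9 were below 0, with a median of -0.52. In edgeR 3 had an unadjusted p under 0.05, and 4 did not overlap between the groups, all lower. Scrib, a polarity scaffold, measured 46.0 ± 5.36 against 31.99 ± 3.70 CPM (log2 fold change -0.52, edgeR adjusted p 0.162).

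Most common targets of beta-catenin signalling were below 0 as well, although the usual readout gene was too scarce to compare. Of 20 genes in the files, 13 were tested, 12 of them below 0, against 52.2% of all genes. The median was -0.39, and 3 had an unadjusted p under 0.05. Axin2, the most widely used readout of the pathway, had 1.98, 1.12 and 1.46 CPM for control 1 to 3, compared with 1.01, 2.10 and 1.30 CPM for FID 1 to 3, a level that leaves little room to see a difference (log2 fold change -0.00058, SE 0.70). Nkd2, a feedback inhibitor, had 14.0, 7.40 and 9.76 CPM for control 1 to 3, compared with 4.28, 3.57 and 4.11 CPM for FID 1 to 3, without overlap (log2 fold change -1.36, SE 0.28, edgeR adjusted p 0.136, DESeq2 adjusted p 0.00415). Myc, which many other signals also control, measured 356 ± 24.4 against 229 ± 32.3 CPM (log2 fold change -0.64, SE 0.15, edgeR adjusted p 0.136, DESeq2 adjusted p 0.00832). Ccn4, a matricellular protein, measured 79.7 ± 17.6 against 53.6 ± 12.2 CPM (edgeR adjusted p 0.230). The FAP and fibroblast markers had a median of -0.42 in the same fit. The part of the cell mix in the values of the targets, and of the genes inside the cell, was not tested.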

How the data were processed

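The authors deposited raw counts of reads per Ensembl gene, per the file headers and rows, and these entered the tests unchanged. The submitters' processing notes name the build mm10 and list, without roles, Bowtie2 2.5.4, STAR, SAMtools, HTSeq, cutadapt and DESeq2. The strand setting is not given in the sources used here. Entries naming no gene (9.60% to 10.9% of each file) were left out. Symbols were matched for 42462 of 43432 genes, and positions and exon lengths come from GENCODE M21.

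Groups follow the sample titles. Genes were filtered with filterByExpr (minimum count 10, minimum total 15), scaled by TMM and compared with edgeR 4.0.16 (quasi-likelihood, group as the only term, two-sided, Benjamini-Hochberg over all 12881 genes at 0.05). The SE is the size of the log2 fold change over the root of F, and intervals built on it are approximate. Alternatives were RLE factors, DESeq2 1.42.0, limma-voom 3.58.1, no filter, each library left out, a replicate block and scaling by the FAP and fibroblast markers. Libraries of a group differed by more than sampling noise (chi-square per degree of freedom 14.1 to 46.0). Floors of 3 counts cover counting error only.

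All 10 genes are named. From each pathway list, members with the smallest p, at most 5, and Axin2, Frzb and Wls could be named, while Ror2, Dkk1, Dkk4, Lef1 and Tcf7 were picked with their values known. The 10 genes and lists were chosen with earlier results of these data known.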

Additional observations from a re-analysis of the deposited data

How the results depend on the processing

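No gene of the 10 passed the adjusted threshold with edgeR under RLE factors, with limma-voom, or with edgeR under the replicate block, the FAP marker scaling or with any 1 library left out (0 called each time). DESeq2 called 1 and the fit with no filter on low counts called 1, in both cases Sfrp1 (adjusted p 2.2e-06 and 0.0266). Over all genes, DESeq2 called 764 of 12881, no filter 269 of 21380 and the FAP marker scaling 2210 of 12881, of which 2189 were higher. With 1 library left out the count ranged from 0 to 359, the highest without FID 1, and it was 3 without control 1. Among pathway genes outside the 10, DESeq2 called 8 of 72, all lower, against 2.27% of all genes called lower. The fit with no filter called 1 of 96 (Nkd2, lower). The FAP marker scaling called 1 of 72 (Tmed5, a cargo receptor of Wnt secretion, higher). The genes whose groups did not overlap numbered 1 with the FAP marker scaling and 2 to 4 with 1 library left out, the highest without FID 2. Groups fail to overlap more easily when 1 of them has a library fewer, so the higher counts are no result about these genes. Of the 9 tested genes, those below 0 numbered 4 with the FAP marker scaling and 6 to 9 with 1 library left out. All 9 were below 0 without FID 1. The shares over all genes were not computed for these settings. With 1 library left out, the log2 fold change took either sign for Sfrp4 (-1.41 to 0.043, positive without control 1), Wif1 (-0.10 to 0.61, negative without FID 1), Wnt5a (-0.28 to 0.44, negative without control 1 and, at -0.017, without FID 1) and Rspo3 (-0.43 to 0.080, positive without control 3). Under the FAP marker scaling it was reversed for Dkk2 (0.21), Rspo3 (0.20) and Tcf7l2 (0.057). The cause was not tested. The replicate numbers pair nothing that the labels name: same-numbered libraries had correlations of their deviations of -0.013, -0.32 and 0.34. With the replicate block 0 genes were called, 0 of the 10 and 0 pathway genes, and Sfrp1 had -0.89 (edgeR adjusted p 0.153). Depth limits Wnt2, Wif1 and Axin2, which had few counts.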
